A study of Pinus pinaster with 30 samples.

Results

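Embryos of maritime pine (Pinus pinaster) collected on Day0 and on Day5 of a summer sampling series were compared on a cDNA microarray, to describe which transcripts differed between early embryos and pre-cotyledonary embryos. The members were the samples labelled with these 2 collection days, 3 on Day0 and 3 on Day5, which is 6 of the 15 samples and 12 of the 30 arrays of the series. Day0 samples held embryos of stages T0, T1 and T2, termed early, and Day5 samples held stages T3 and T4, termed pre-cotyledonary, the stages before cotyledon primordia become visible. Every sample was labelled as a pool of 60 embryos, the dominant ones of their seeds, taken out of the surrounding megagametophyte, the haploid tissue that nourishes a conifer embryo, from seeds of open-pollinated trees of a clonal orchard. The groups therefore differ in stage and in cone collection date together, and neither was treated. Embryo RNA was amplified, labelled with Cy3 and hybridised together with a Cy5-labelled pool of RNA from all samples, which all arrays shared. Values are log2 ratios of the embryo sample to that pool, so a level of 0 means the same signal as the pool and a difference of 1 between days means a 2-fold change. Differences are given as Day5 minus Day0, and "rose" and "fell" mean higher and lower on Day5 with an adjusted p under 0.05.

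A conifer embryo starts as a small embryonal mass carried on long, vacuolated suspensor cells that push it into the megagametophyte. The suspensor then degenerates by programmed cell death while the embryonal mass enlarges, sets up a shoot and a root apex, and forms a ring of cotyledons. Growth in this interval depends on wall loosening, on sugar taken up from the surrounding tissue and on polar auxin transport, and reserves such as storage proteins and dehydration-protective proteins accumulate later. In pools of whole embryos, fewer cells of a type and less RNA per cell cannot be told apart. The array was built from loblolly pine root and needle cDNA, so transcripts found only in embryos may have no spot.

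Of 26496 spots on the array, 16676 had values in 2 or more samples on both days and were tested, and 11331 of them had all 6 values. Names were taken from the study's own tables, which list spots selected for change over these same collection days, and 1703 tested spots had one. A spot is given below by its position on the array (block row, block column, row, column). Counts of named spots are therefore read against the shares of all named spots that passed the test, 27.1% (10.1% rising and 17% falling), as well as against 7.33% for all spots. With 3 samples a day an exact permutation test of a single spot cannot go below p = 0.1, so all p-values come from the moderated fit across all spots and all 15 samples and measure the spread between pools.

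The 6 samples did not stand equally far apart. Over all spots, samples of the same day correlated at r = 0.621 to 0.814 on Day0 and at 0.568 to 0.783 on Day5. Day0 replicate 2 correlated with Day5 replicate 3 at 0.639, above its correlation with Day0 replicate 1 at 0.621. Day0 replicate 1 was the sample farthest from Day5, with correlations of 0.328 to 0.386 to the 3 Day5 samples. Leaving out Day0 replicate 1 lowered the number of spots that passed the test from 1223 to 560, leaving out Day0 replicate 2 gave 1503, and leaving out Day5 replicate 2 gave 491. Without Day0 replicate 3, Day5 replicate 1 or Day5 replicate 3 the numbers were 773, 745 and 801. Whether slides or scan runs differed between the days is not given in the sources used here.

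Between Day0 and Day5, 1223 of 16676 spots changed (7.33%), of which 501 rose (3%) and 722 fell (4.33%). At least 2-fold changes were more often falls: 233 spots fell (1.4%) and 130 rose (0.78%), or 64.2% and 35.8% of the 363 spots. When all arrays were scaled to the same spread the split was 76.3% falls and 23.7% rises. At least 4-fold changes were seen at 26 falling and 5 rising spots. The median difference over all spots was 0.03. The samples with a value did not overlap between the days at 232 of the 233 falls and 128 of the 130 rises, of which 224 spots had all 6 values. Over all spots with 6 values 28% did not overlap, and since these spots were called by their separation nothing is read from the difference. None of the 363 spots turned its direction in an alternative that tested it. Where the days do not overlap, leaving out a single sample cannot turn a spot, so nothing is read from this. With a single sample left out, 288 to 313 of them were tested. Without Day0 replicate 1, 233 of 288 still passed, and without Day5 replicate 2, 227 of 302.

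**Figure D1:**
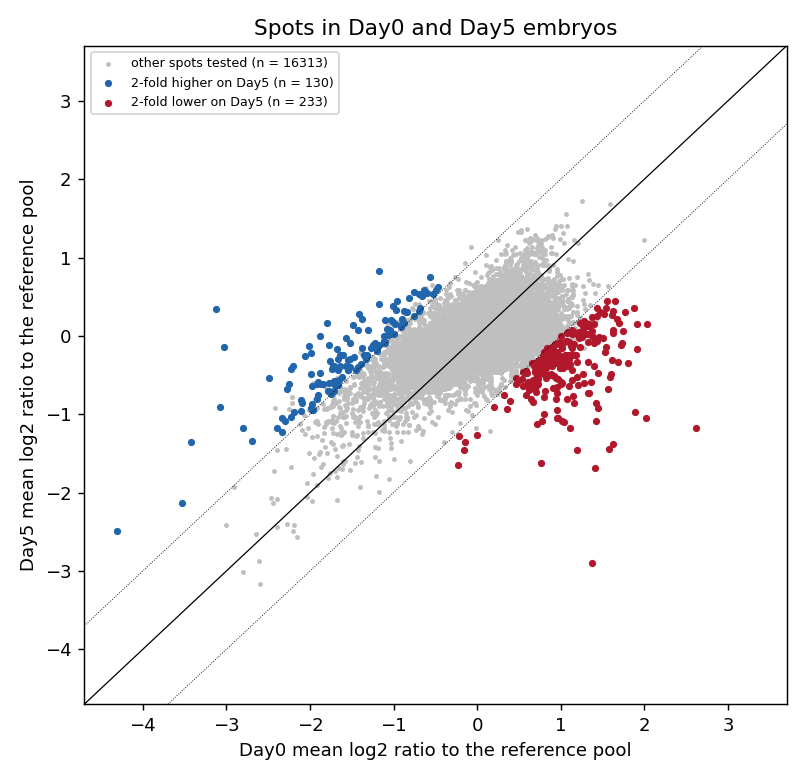
Mean log2 ratio to the reference pool on Day0 (horizontal) and Day5 (vertical) for the 16676 spots tested, each point 1 spot. Blue points are the 130 spots at least 2-fold higher and red points the 233 spots at least 2-fold lower on Day5, the solid line marks equality, dotted lines a log2 difference of 1 in either direction, and the falls spread farther from equality than the rises.

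At these spots the Day0 samples lay farther from the pool than the Day5 samples. At the 150 falls with 6 values the median log2 ratios were 1.51, 0.80 and 0.85 in Day0 replicates 1, 2 and 3, and -0.20, -0.42 and -0.34 in the Day5 replicates. Day0 replicate 1 was the highest Day0 sample at 120 of these 150 spots. At the 74 rises with 6 values the Day0 medians were -1.88, -1.31 and -1.42 and the Day5 medians -0.21, -0.25 and -0.21. Here Day0 replicate 1 was the lowest of its day at 60 of 74 spots. By these medians, falling spots were above the pool on Day0 and rising spots below it, while on Day5 both sets lay close to it.

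**Figure D2:**
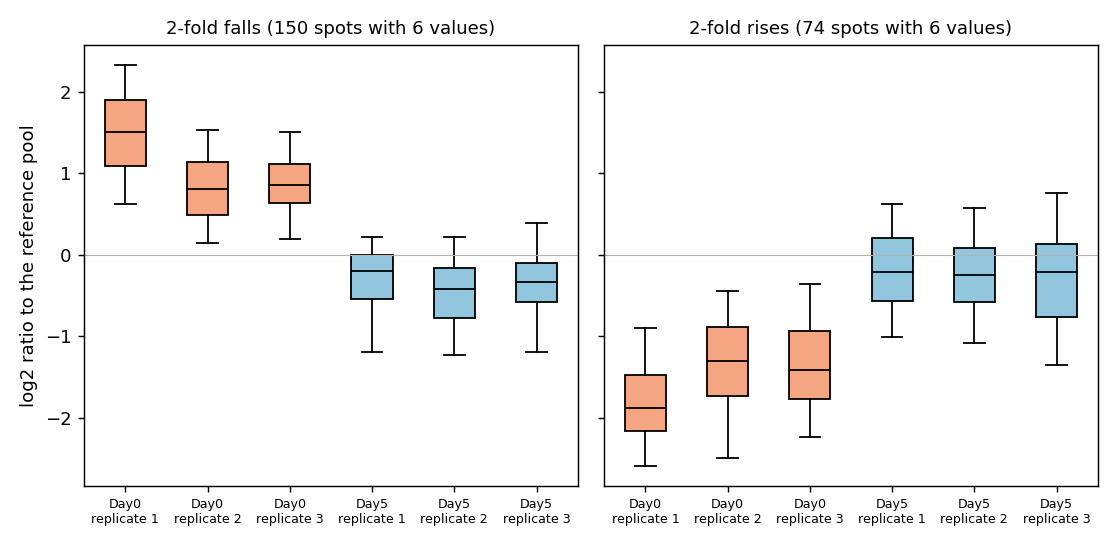
Log2 ratios to the reference pool in each of the 6 samples, at the 150 falls (left) and the 74 rises (right) with 6 values. Boxes span the quartiles with the median as a line, whiskers the 5th to 95th percentile of spots, and Day0 replicate 1 lies farthest from the Day5 samples in both panels, with medians of 1.51 and -1.88.

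Enzymes that remodel the cell wall fell at many of the named spots. Xyloglucan endotransglucosylases (XTHs), which cut and rejoin the xyloglucan chains that tie cellulose together, fell at 12 of 24 spots and rose at none, with a median difference of -0.72 against 0.03 for all spots. The XTH 23-like spot 5.4.7.15 had log2 ratios of 3.51 and 1.72 in Day0 replicates 1 and 3, with no value in replicate 2, and of -1.12, -1.33 and -1.06 on Day5. The days were thus far apart, by -3.79 ± 0.38 (SE; 13.8-fold, adjusted p = 0.000153), and a second spot of the same assembled transcript, 1.1.17.22, differed by -2.24 ± 0.26. The XTH 28-like transcript was printed as 3 spots, with differences of -2.08, -1.92 and -1.69. Spot 2.2.22.1 of this transcript read 2.62, 1.73 and 1.37 on Day0 and 0.46, -0.28 and -0.69 on Day5. Another XTH spot, 3.4.4.22, had all 6 values and differed by -2.50 ± 0.24 (5.67-fold, adjusted p = 8.90e-05). The falls went down in size to -0.59 ± 0.15 at spot 4.3.16.19, and the 12 spots that did not pass lay up to 0.21. Without Day0 replicate 1 the count was 7 of 20.

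Expansins, which loosen walls without hydrolysis, fell at 6 of 10 spots and rose at none, with a median of -0.69. Expansin 1 (6.2.19.7) had log2 ratios of 0.72, 1.80 and 0.34 on Day0 and of -0.17, -0.75 and -1.03 on Day5, a difference of -1.60 ± 0.29 (adjusted p = 0.00455). Its highest Day0 sample was replicate 2, not replicate 1 as in most falls. Alpha-expansin 11 differed by -1.52 ± 0.30, alpha-expansin 4 by -0.72 ± 0.20 and alpha-expansin 8 by -0.65 ± 0.12. When only the 6 samples of these days were fitted, 1 of the 10 expansin spots passed.

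Pectin enzymes moved in both directions, with 5 falls and 2 rises among 18 spots and a median of -0.17. Pectinesterase 68-like, one of the enzymes that remove methyl groups from pectin, read 2.05 and 2.01 in Day0 replicates 1 and 3 and 0.25, 0.06 and 0.15 on Day5 at spot 7.4.19.14, a difference of -1.88 ± 0.18 (adjusted p = 0.000145). A second spot of that transcript differed by -0.73 ± 0.13. A pectin methylesterase measured at 2 spots fell, with differences of -1.92 and -1.58. In contrast a pectinesterase with an inhibitor domain (6.2.13.17) rose by 1.12 ± 0.22 and a pectin lyase-like transcript (5.4.17.3) by 0.99 ± 0.19. A second spot of that pectinesterase transcript differed by 0.73 and did not pass. The falls numbered 2 or 3 of 13 to 15 without Day0 replicate 1, Day0 replicate 3, Day5 replicate 2 or Day5 replicate 3, and the rises 3 of 13 without Day5 replicate 3.

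All 5 tested spots for enzymes or carriers of nucleotide sugars, the activated sugars from which wall polysaccharides are made, fell, with a median of -1.24. UDP-D-glucuronate 4-epimerase 2, which supplies the galacturonate units of pectin, read 2.3, 1.4 and 1.34 on Day0 and -0.31, -0.46 and -0.23 on Day5, a difference of -2.01 ± 0.25 (adjusted p = 0.000329). UDP-glucose 4-epimerase differed by -1.43 ± 0.20, a GDP-fucose transporter-like transcript by -1.24 ± 0.23, and GDP-mannose pyrophosphorylase, measured at 2 spots, by -0.93 ± 0.15 and -0.58 ± 0.10. Every member tested also passed when any single sample was left out.

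Several smaller wall and cell surface groups had some falls and no rise among their spots. Fasciclin-like and arabinogalactan proteins, heavily glycosylated proteins of the cell surface, fell at 2 of 7 spots, led by a fasciclin-like arabinogalactan protein at -1.75 ± 0.22. Early nodulin-like protein 1, a relative of small copper proteins of the surface, fell at both of its spots, by 1.64 and 1.23, and 1 of these was tested without Day0 replicate 1, Day0 replicate 3, Day5 replicate 1 or Day5 replicate 3. A glycosyl hydrolase transcript measured at 2 spots fell by 1.54 and 1.18, and alpha-xylosidase, which trims xyloglucan, by 1.14. The list of other wall glycosidases and cellulose synthases had 3 falls and no rise among 10 spots. Its median of -0.02 was near the 0.03 of all spots. Of 9 spots for lignin and phenylpropanoid enzymes 3 fell and none rose, all 3 of them caffeoyl-CoA O-methyltransferases, at -1.36, -1.06 and -0.83. A second spot of the last transcript differed by 0.19, so its change is uncertain. An L-ascorbate oxidase-like multicopper protein (2.1.19.10) read 2.83, 1.53 and 1.31 on Day0 and -0.88, -0.98 and -1.06 on Day5, and so differed by -2.86 ± 0.34 (7.26-fold, adjusted p = 0.000348).

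**Figure D3:**
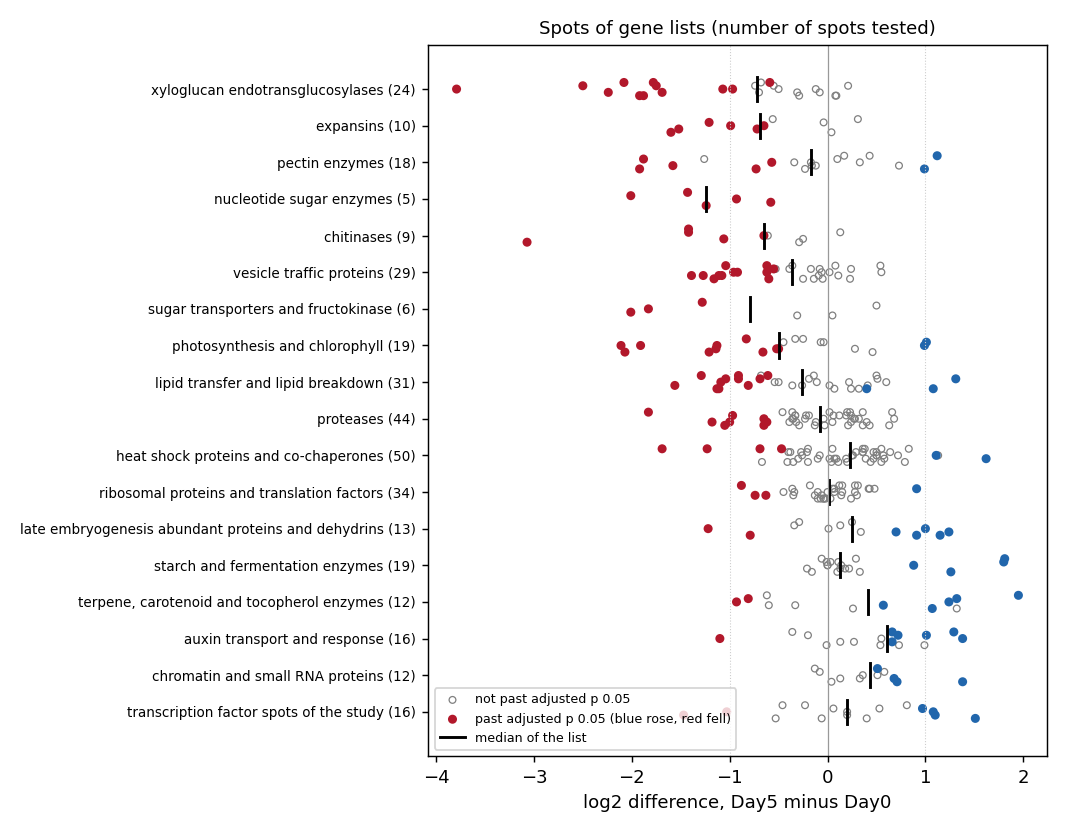
Log2 differences (Day5 minus Day0) of all tested spots in 18 gene lists, each point 1 spot, with the number of spots in brackets. Filled points passed adjusted p under 0.05 (red fell, blue rose), open points did not, black bars are list medians and dotted lines mark a 2-fold change. XTHs have 12 filled falls and no filled rise, and starch and fermentation enzymes 4 filled rises and no filled fall.

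Among 29 spots for vesicle traffic proteins, which carry membrane and cargo between compartments, 12 fell and none rose, with a median of -0.36. Patellin-4, a Sec14-like lipid-binding protein, differed by -1.39 ± 0.26, and a small GTPase of the Rab5 type by -1.27 ± 0.19. A Rab6-family GTPase differed by -1.11 ± 0.20, a plant synaptotagmin by -1.16 ± 0.22 and the SNARE protein NPSN13 by -0.96 ± 0.13. The count was 7 of 26 without Day0 replicate 1, 7 of 26 without Day5 replicate 2, and 5 of 29 with only the 6 samples in the fit.

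In the cytoskeleton list 4 of 22 spots fell and none rose, a share of falls near the 17% of all named spots, and all 4 belong to the actin system. A profilin-like transcript, profilin being a binding protein of actin monomers, was well above the pool in each Day0 sample and below it in each Day5 sample, with a difference of -2.09 ± 0.19. An actin (11.3.13.23) differed by -1.58 ± 0.28, actin-related protein C3, a subunit of the complex that starts branched filaments, by -1.27 ± 0.33, and a myosin heavy chain-like spot by -0.71 ± 0.20. Without Day0 replicate 1, Day5 replicate 1 or Day5 replicate 2 there were 2 falls, among 18, 17 and 18 spots.

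Of 6 spots in the list of sugar transporters and fructokinase, which take up and phosphorylate sugars, 3 fell and none rose. Sugar transporter 1 (1.1.8.16), a hexose and proton symporter of the plasma membrane, had log2 ratios of 1.99, 0.45 and 1.02 on Day0 and of -0.64, -0.95 and -0.97 on Day5. Its samples did not overlap and it differed by -2.01 ± 0.28 (4.02-fold, adjusted p = 0.00142). A hexose transporter (11.3.20.6) read 2.02, 1.34 and 1.80 on Day0 and 0.20, -0.46 and -0.07 on Day5, a difference of -1.83 ± 0.29. The third was an ERD6-like transporter at -1.28 ± 0.21. There was 1 rise when Day5 replicate 3 was left out and 1 when arrays were entered singly. Monosaccharide transporter 3 had differences of 0.05 and 0.50 at its 2 spots and did not pass.

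The plasma membrane proton pump (H+-ATPase), whose gradient drives such uptake and acidifies the wall, read 2.31, 1.74 and 1.55 on Day0 and 0.62, 0.04 and 0.41 on Day5 at spot 2.1.19.13. It differed by -1.51 ± 0.20, and by -1.11 ± 0.24 at a second spot. Among 20 spots for proton pumps and other transporters 7 fell and 4 rose. The falls included an oligopeptide transporter (-1.56), an ABC transporter (-1.37) and a YSL7-like metal carrier (-1.28), and the rises were led by lysine histidine transporter-like 8 at 1.08 ± 0.25, which did not pass in any of the following fits. Without Day0 replicate 1 there were 3 falls and 1 rise among 15 spots, without Day5 replicate 1 3 and 2 among 18, and without Day5 replicate 2 3 and 1 among 17. An aquaporin of the NIP subfamily, channels for small uncharged solutes, read 1.69, 0.99 and 0.64 on Day0 and -0.87, -1.23 and -1.40 on Day5, and differed by -2.28 ± 0.22 (4.85-fold, adjusted p = 8.90e-05). Of the other 12 water channel spots 1 fell, a delta tonoplast protein at -0.67, and 1 rose. The rise, of 0.77, was a plasma membrane aquaporin whose spot was also matched to a ferritin transcript, so its identity is uncertain. Both calls were lost without Day5 replicate 2 (adjusted p = 0.0537 and 0.0529), and the rise also without Day0 replicate 1 (0.0926), Day0 replicate 3 (0.0505) or Day5 replicate 1 (0.0935).

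The greatest single difference of any spot tested was a fall of a glutathione transferase, an enzyme that joins glutathione to reactive compounds. Spot 7.1.21.13 had log2 ratios of 2.22, 0.61 and 1.28 on Day0 and of -3.24, -3.02 and -2.44 on Day5. Every Day5 sample was thus more than 3 log2 units below every Day0 sample, and the difference was -4.27 ± 0.29 (19.3-fold, adjusted p = 3.05e-06). On later days it stayed low, at -3.95 ± 0.13 on Day11 and -4.41 ± 0.02 on Day25 (SD, n = 3). A second glutathione transferase with the same Arabidopsis match, 4.4.6.21, differed by -3.00 ± 0.39. In the whole list 3 of 9 spots fell and none rose, with 4 falls and 1 rise of 7 when Day5 replicate 3 was left out. A cytochrome P450 71A1-like oxidase (5.4.9.1) differed by -3.08 ± 0.26, while the P450 list as a whole had a median of 0.00 over 28 spots, with 3 falls and 2 rises. That list had 1 fall without Day0 replicate 1, Day5 replicate 1 or Day5 replicate 2, 2 falls without Day5 replicate 3, and no rise without Day5 replicate 1.

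Chitinases, which cleave chitin and related polymers and are known in conifers from defence and from embryogenic cultures, fell at 5 of 9 spots. A basic endochitinase (11.4.11.14) read 2.56 and 1.48 in Day0 replicates 1 and 3 and -1.05, -1.36 and -0.74 on Day5, a difference of -3.07 ± 0.31 (8.37-fold, adjusted p = 0.00035). The other spot of its assembled transcript, 3.1.2.1, differed by only -0.61 (adjusted p = 0.0505), so the size of this change is uncertain. A class I chitinase fell by 1.42 at each of its 2 spots. Without Day0 replicate 3, 3 of 6 chitinase spots fell. Among 23 peroxidase spots 4 fell and 2 rose, shares near the 17% and 10.1% of all named spots. The rises were both matched to the same Arabidopsis peroxidase, at 1.82 ± 0.34 (12.4.13.21) and 1.35 ± 0.29 (7.1.2.6). The second of these did not pass without Day0 replicate 1 (adjusted p = 0.0697) or Day0 replicate 3 (0.0543). Both spots had Day5 values only in replicates 2 and 3 and could not be tested without either. The peroxidase falls numbered 2 without Day0 replicate 1, Day0 replicate 3 or Day5 replicate 1.

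**Figure D4:**
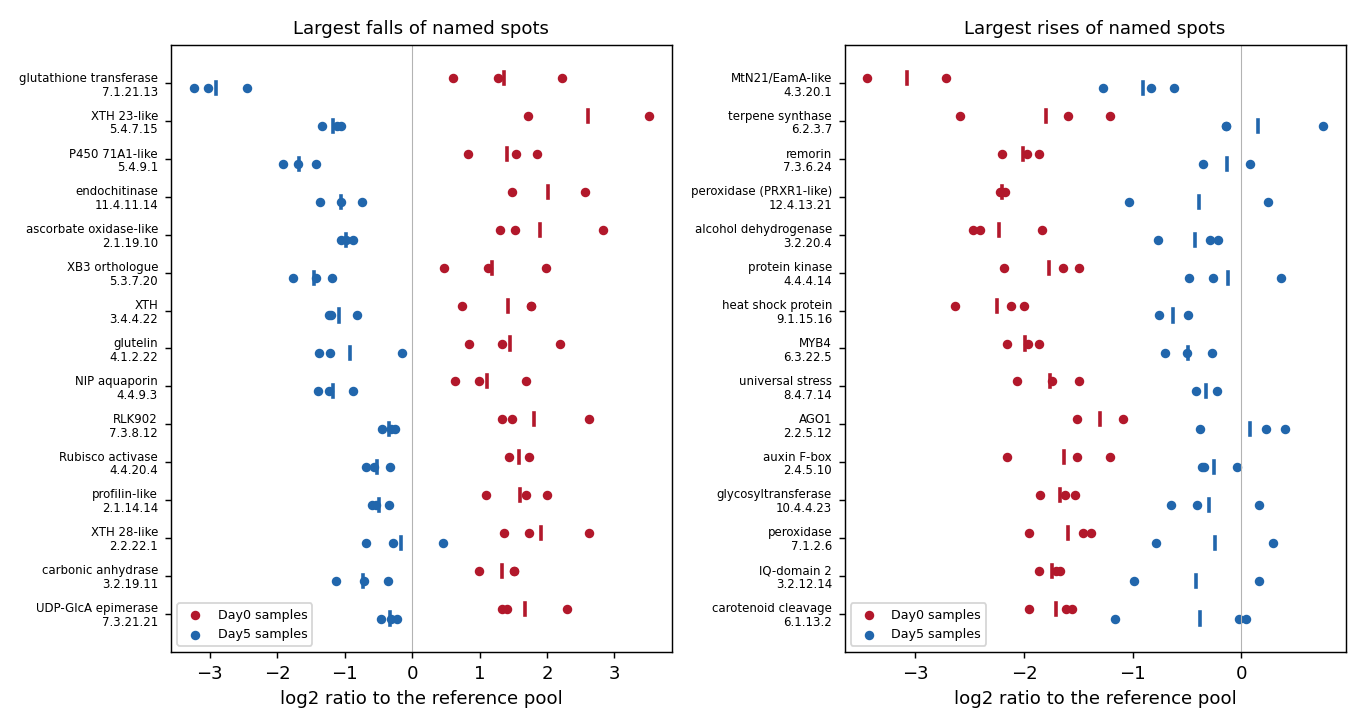
Log2 ratios to the reference pool in single samples for the 15 largest falls (left) and 15 largest rises (right) of at least 2-fold, taking 1 spot per name among spots with 1 unambiguous name whose days did not overlap, with the spot position under each name. Red points are Day0 and blue points Day5 samples, upright bars are the means of the samples with a value, and the 30 spots were chosen so that the days do not overlap.

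Photosynthesis genes were mostly higher in the early embryos. Of 19 spots 10 fell and 2 rose, with a median of -0.50. Rubisco activase, which keeps the carbon-fixing enzyme active, read 1.74 and 1.43 in Day0 replicates 1 and 3 and -0.32, -0.68 and -0.57 on Day5 at spot 4.4.20.4, a difference of -2.11 ± 0.16 (adjusted p = 8.90e-05). On Day25 its mean was 1.31 ± 0.12 (SD, n = 3), near the Day0 level. Carbonic anhydrase read 1.51, 1.51 and 0.99 on Day0 and -0.35, -1.13 and -0.71 on Day5, a difference of -2.07 ± 0.22. The Rubisco large subunit differed by -1.91 ± 0.40, and 5 subunits of photosystem I fell by 0.50 to 1.13. The rises were NADPH:protochlorophyllide oxidoreductase, the light-dependent step of chlorophyll synthesis, at 0.99 ± 0.19, and a light-harvesting protein of photosystem II at 1.01 ± 0.23, whose call was lost without Day5 replicate 1 (adjusted p = 0.0525) or Day5 replicate 2 (0.0658). The falls numbered 5 of 16 without Day0 replicate 1, 6 of 18 without Day5 replicate 1 and 4 of 15 without Day5 replicate 2, and 5 of 19 with only the 6 samples in the fit.

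Among the named spots 3 were storage or oil body proteins, of which 2 were tested. Glutelin type-A, a globulin-like seed storage protein, was at both spots, which belong to different assembled transcripts, and both fell. Spot 4.1.2.22 read 2.19, 0.84 and 1.33 on Day0 and -0.15, -1.21 and -1.38 on Day5, a difference of -2.37 ± 0.34 (5.17-fold, adjusted p = 0.001). The other spot, 8.4.21.5, had 4 values, so that it could not be tested without any of these samples, and read 1.28 and 1.43 on Day0 and -0.15 and -1.03 on Day5 and differed by -1.94 ± 0.26. Storage proteins are also abundant in the megagametophyte, and no transcript found only in that tissue was among the names, so the part of carried-over tissue in these falls was not tested. No marker defines an early embryo or its suspensor among the named spots, and the stage labels were not checked on that account.

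Late embryogenesis abundant (LEA) proteins, which protect cells from drying, were split. Of 13 spots 5 rose and 2 fell, with a median of 0.25. The rises included 3 spots matched to one LEA-related Arabidopsis locus, at 1.24 ± 0.24, 1.15 ± 0.20 and 0.91 ± 0.23, all of which had Day0 means between -1.9 and -1.55. The falls were 2 spots of dehydrin 2, at -1.22 ± 0.28 and -0.79 ± 0.17. Rises numbered 1 of 13 after scaling the arrays to equal spread, 2 of 12 without Day5 replicate 1 and 3 without any single Day0 sample or Day5 replicate 3, and falls numbered 0 without Day0 replicate 2 or Day0 replicate 3 and 1 without any single Day5 sample.

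Heat shock proteins and co-chaperones, which fold and protect proteins, changed little as a group, with 2 rises and 4 falls among 50 spots. An Hsp70 spot (9.1.15.16) was the outstanding member, with log2 ratios of -2.0, -2.63 and -2.12 on Day0 and of -0.76 and -0.49 in Day5 replicates 1 and 2. It rose by 1.62 ± 0.23 (3.08-fold, adjusted p = 0.00338) and reached 0.80 ± 0.13 on Day25 (SD, n = 2). When spots were used whatever their quality mark, its difference was 0.87 and did not pass (adjusted p = 0.109). An Hsp90 spot rose by 1.11 ± 0.19, and 2 DnaJ-type chaperone spots fell by 1.69 and 1.23. Falls numbered 2 without Day0 replicate 1, Day0 replicate 2, Day5 replicate 1 or Day5 replicate 2, and rises 4 without Day0 replicate 2, 1 without Day5 replicate 2 and 0 without Day5 replicate 1.

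Enzymes of starch breakdown and fermentation held some of the clearest rises. Alcohol dehydrogenase, which regenerates NAD in the absence of oxygen, rose at 2 spots. Spot 3.2.20.4 read -2.47, -2.40 and -1.83 on Day0 and -0.21, -0.29 and -0.77 on Day5, and spot 4.3.17.15 read -2.09, -2.28 and -1.82 on Day0 and -0.26, -0.06 and -0.47 on Day5. The samples of the days were well apart at both, and the differences were 1.81 ± 0.21 (3.51-fold, adjusted p = 0.000236) and 1.80 ± 0.16 (3.48-fold, adjusted p = 0.000145). The level at spot 3.2.20.4 went on to 0.53 ± 0.17 on Day11 and 0.91 ± 0.25 on Day25 (SD, n = 3). Spot 4.3.17.15 aligned to more than 1 assembled transcript. Another transcript with the same name in the study's tables had 2 spots, which differed by -0.01 and 0.03 and did not pass. A beta-amylase, which releases maltose from starch, read -1.58, -2.16 and -1.87 on Day0 and -0.54, -0.46 and -0.82 on Day5 and rose by 1.26 ± 0.20, and an alpha-glucan phosphorylase by 0.88 ± 0.21. Of 19 spots in the list 4 rose and none fell, with a median of 0.13. In the mitochondrial respiration list 3 of 13 spots fell and 1 rose, with a median of -0.16. Among all named spots 17% fell and 10.1% rose. Succinate dehydrogenase fell at 2 spots, by 1.20 and 1.16. The rise was a ubiquinone biosynthesis protein, at 0.51 ± 0.15 (adjusted p = 0.0499).

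Isoprenoid enzymes rose at 5 of 12 spots and fell at 2, with a median of 0.42. A terpene synthase spot (6.2.3.7) read -2.59, -1.21 and -1.59 on Day0 and 0.75, -0.14 and -0.14 on Day5, a difference of 1.95 ± 0.43 (3.87-fold, adjusted p = 0.0134) that did not pass without Day0 replicate 1 (0.0586) or Day5 replicate 1 (0.0566). Carotenoid cleavage dioxygenase 1, which splits carotenoids into smaller volatiles and precursors, read -1.56, -1.95 and -1.61 on Day0 and 0.04, -0.02 and -1.16 on Day5 and rose by 1.32 ± 0.24. Gamma-tocopherol methyltransferase, the last step to the vitamin E form alpha-tocopherol, rose at 2 transcripts, by 1.07 ± 0.15 and 1.24 ± 0.24. The 2 falls were hydroxymethylglutaryl-CoA reductases, which open the cytosolic isoprenoid route, at -0.93 and -0.81, and neither passed without Day0 replicate 1 (adjusted p = 0.0534 and 0.144) or without Day5 replicate 3 (0.0645 and 0.128), and the second did not pass without Day0 replicate 3 (0.0512), Day5 replicate 1 (0.0632) or Day5 replicate 2 (0.108). Among 18 flavonoid and stilbene spots 2 rose and 2 fell, near the 10.1% of all named spots that rose and below the 17% that fell. The rises were anthocyanidin synthase at 1.11 ± 0.19 and a flavonoid 3'-hydroxylase at 1.10 ± 0.23. The falls were a stilbene synthase-like spot at -1.19 ± 0.16 and a second flavonoid 3'-hydroxylase at -0.54 ± 0.15. This last call was lost without Day0 replicate 1 (adjusted p = 0.0517), Day5 replicate 1 (0.0901) or Day5 replicate 2 (0.141). Second spots of the anthocyanidin synthase transcript and of the falling hydroxylase transcript differed by 0.62 and -0.26 and did not pass. The flavonoid list had 1 rise without Day0 replicate 1 or Day5 replicate 1 and 4 without Day5 replicate 3, and 1 fall in the 5 fits that left out a sample other than Day5 replicate 3.

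Auxin genes had the highest median of the lists with more than 3 spots, at 0.60, with 6 rises and 1 fall among 16 spots. An auxin efflux carrier close to Arabidopsis PIN3, one of the proteins that send auxin out of cells in a set direction, read -1.23, -0.49 and -0.36 on Day0 and 0.37, 0.33 and 0.26 on Day5, a difference of 1.01 ± 0.19 (2.02-fold, adjusted p = 0.00739). A second spot of that transcript differed by 0.73 and did not pass (adjusted p = 0.125), and another efflux carrier rose by 0.66 ± 0.16. A BREVIS RADIX-like 4 protein, related to a regulator of root growth in Arabidopsis, rose by 1.29 ± 0.23. A SAUR-like protein rose by 0.72 ± 0.17 and auxin response factor 16 by 0.66 ± 0.17. For this response factor the study reports a strong fall between the same days, at another spot. That spot was not among the transcription factor spots tested here, so its fall was not tested. An auxin receptor F-box protein close to AFB5 read -2.16, -1.21 and -1.51 on Day0 and -0.04, -0.34 and -0.36 on Day5 at spot 2.4.5.10 and rose by 1.38 ± 0.20, but a second spot of the same transcript, 9.2.18.14, differed by -0.01. The receptor TIR1 had a difference of 0.27 and an influx carrier like AUX1 had -0.20 and -0.36 at its 2 spots, none of which passed. The fall was an NDL1-like protein, at -1.10 ± 0.23, whose spot was also matched to the XTH 28-like transcript, so its identity is uncertain. Rises numbered 3 of 14 without Day0 replicate 1, 3 of 12 without Day5 replicate 1, 3 of 10 without Day5 replicate 2, and 1 of 16 with only the 6 samples in the fit.

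Of the other hormones, 3 ethylene genes rose among 14 spots and none fell. ACC oxidase, which makes ethylene, rose by 0.85 ± 0.18, a transcript close to EIN2, the central carrier of the ethylene signal, by 0.83 ± 0.20 and an ethylene response factor by 0.71 ± 0.20. Without Day0 replicate 3 or without Day5 replicate 1 there was 1 rise of 12, and with only the 6 samples in the fit there was none. A gibberellin-induced protein of the GASA family (5.2.7.18) read 0.96, 0.61 and 1.68 on Day0 and -1.71, -0.40 and -0.33 on Day5, fell by 1.90 on the log2 scale, and went on to -3.58 ± 0.25 on Day25 (SD, n = 3).

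Of 12 spots for chromatin and small RNA proteins 4 rose and none fell, with a median of 0.44. AGO1, the slicer protein loaded with microRNAs, had no value in Day0 replicate 1, read -1.51 and -1.09 in Day0 replicates 2 and 3, and read 0.40, 0.23 and -0.38 on Day5. It rose by 1.38 ± 0.30 (2.61-fold, adjusted p = 0.0132), a call lost without Day5 replicate 2 (0.0512). RAD5, a DNA repair protein of the SWI/SNF helicase type, rose by 0.71 ± 0.18, a SWI/SNF complex protein CHC1 by 0.68 ± 0.16 at one spot and by a difference of 0.36 that did not pass at another, and a SWIB-domain protein by 0.51 ± 0.14. The list had no rise without Day0 replicate 3 or Day5 replicate 2, 1 rise without Day0 replicate 2 or Day5 replicate 1, and 2 without Day0 replicate 1. A wider set of chromatin spots that the study itself had chosen on these samples, and so no independent evidence of direction, had 3 rises and no fall among 15 spots, with 5 rises without Day5 replicate 3, 1 without Day0 replicate 2 or Day5 replicate 1, and 0 without Day0 replicate 3 or Day5 replicate 2.

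The study also followed some of these transcripts by RT-qPCR, and the primers for CLF, a histone methyltransferase of the Polycomb complex, and AGO9, an Argonaute of germline small RNA pathways in Arabidopsis, are shown because they mark which transcripts were watched in both assays. They are printed as the study lists them.
CLF, first primer: tgaaaaatactgtgggtgttcga
CLF, second primer: cagcaaagcacgggcatt
AGO9, first primer: tgcagattcttgtccatgcttt
AGO9, second primer: ctggctcgcagctaaatgc

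On the array CLF read -0.53, -0.64 and -0.65 on Day0 and 0.25, -0.22 and -0.10 on Day5. The samples did not overlap, and the difference of 0.58 ± 0.17 did not pass (adjusted p = 0.052). AGO9 read -0.42, -0.74 and -0.62 on Day0 and 0.04, 0.12 and -0.39 on Day5, a difference of 0.51 ± 0.23 (adjusted p = 0.203), and its mean was 0.83 ± 0.16 on Day11 (SD, n = 3). The histone methyltransferase SUVH1 had a difference of 0.60 ± 0.17 (adjusted p = 0.0603) and the deacetylase HDA9 of 0.33 ± 0.13 (adjusted p = 0.14). The microRNA-processing enzyme DCL1 read 0.66, 0.58 and 0.56 on Day0 and 0.58, 0.60 and 0.24 on Day5, with overlapping samples and a difference of -0.13 ± 0.12. The remodelling protein BSH had a difference of -0.03 ± 0.17, and its mean on Day25 was 1.10 ± 0.38 (SD, n = 2). For histones and DNA replication factors, 7 spots were tested, none passed with limma, none had an unadjusted p under 0.05, and the differences lay between -0.24 and 0.27.

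Among 16 spots for transcription factors that the study had chosen on these samples, 4 rose and 2 fell. MYB4, close to an Arabidopsis repressor of phenylpropanoid genes, read -2.16, -1.86 and -1.96 on Day0 and -0.27, -0.70 and -0.50 on Day5. Its days were apart by 1.51 ± 0.19 (2.84-fold, adjusted p = 0.00146). A trihelix factor close to AT3G54390 rose by 1.10 ± 0.21 and a bHLH factor close to AT1G68920 by 1.08 ± 0.19. FAMA, a bHLH factor of guard cell fate in Arabidopsis, rose by 0.97 ± 0.23 at a spot that aligned to more than 1 assembled transcript. This call was lost when Day0 replicate 1, Day0 replicate 3, Day5 replicate 1 or Day5 replicate 2 was left out (adjusted p = 0.0726, 0.0519, 0.0753 and 0.0641). FTM3, a bZIP factor, read 1.81, 0.39 and 1.14 on Day0 and -0.51, -0.56 and -0.02 on Day5 and differed by -1.47 ± 0.26, and WRKY28 by -1.03 ± 0.17. AINTEGUMENTA (ANT), an AP2-type factor of organ growth, read -1.64, -2.02 and -1.91 on Day0 and -1.09, -1.32 and -1.58 on Day5, a difference of 0.53 ± 0.16 that did not pass (adjusted p = 0.0558). Its mean was 0.83 ± 0.17 on Day15 (SD, n = 3). Factors with their highest mean on Day25, such as ATAF1 (-0.46 ± 0.29), MYB3 (0.20 ± 0.21) and ANAC075 (0.20 ± 0.19), did not pass between Day0 and Day5.

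**Figure D5:**
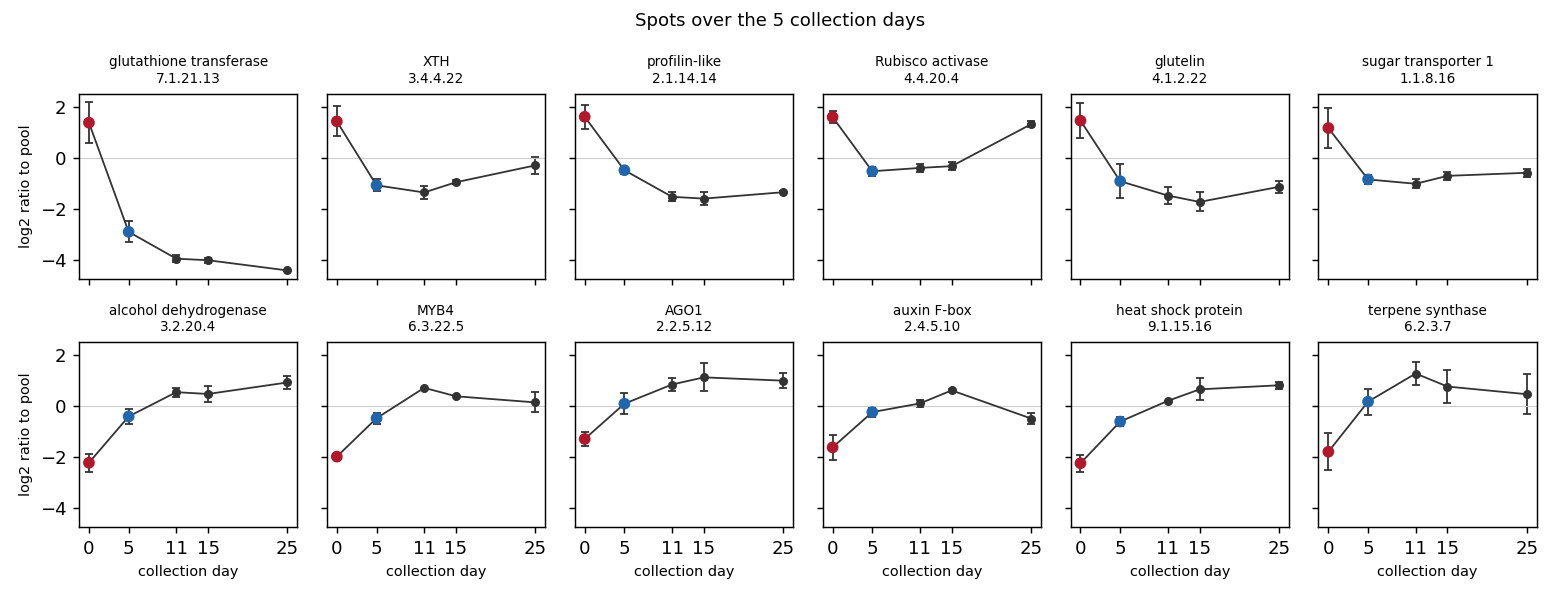
Mean log2 ratio to the reference pool (vertical) on the 5 collection days (horizontal, in days) for 6 spots that fell (top) and 6 that rose (bottom) between Day0 (red) and Day5 (blue). Bars are the SD over samples, absent where a day has 1 sample, and lines join the days. Rubisco activase is the spot in the top row whose Day25 mean, 1.31, returns near its Day0 level.

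Protein breakdown and signalling lists were mixed. Proteases fell at 8 of 44 spots, a share near the 17% of all named spots, and rose at none. There were 6 falls and 2 rises of 39 spots without Day0 replicate 2, and 1 or 2 rises in 6 other alternatives. The subtilisin-like protease APRX read 1.71 and 1.75 in Day0 replicates 2 and 3 and -0.33, -0.12 and 0.18 on Day5, a difference of -1.83 ± 0.17 (3.54-fold, adjusted p = 0.000145). A serine carboxypeptidase differed by -1.18 ± 0.16, and 3 spots for cysteine proteinases, whose closest Arabidopsis match acts in programmed cell death of the tapetum, by -1.0, -0.97 and -0.62. Ubiquitin ligases and F-box proteins rose at 7 and fell at 4 of 54 spots, with an ATL6-like ligase at -1.29 ± 0.18 and a RING-type zinc finger protein at 1.17 ± 0.21, and without Day0 replicate 1 at 3 and 2 of 49. Falls of this list numbered 2 without Day0 replicate 3, Day5 replicate 2 or Day5 replicate 3 and 1 without Day5 replicate 1. XB3 orthologue 5, an ankyrin-repeat ubiquitin ligase outside that list, read 1.98, 0.47 and 1.12 on Day0 and -1.76, -1.43 and -1.19 on Day5 and differed by -2.65 ± 0.29 (6.28-fold, adjusted p = 0.000145).

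Protein kinases rose at 6 and fell at 10 of 70 spots, shares below the 10.1% and 17% of all named spots, and the median was 0.08. The receptor-like kinase RLK902 read 2.62, 1.48 and 1.33 on Day0 and -0.44, -0.26 and -0.31 on Day5, and differed by -2.14 ± 0.27 and, at a second spot, by -1.38 ± 0.32. A protein kinase (4.4.4.14) moved the other way, from -2.18, -1.49 and -1.64 on Day0 to 0.37, -0.26 and -0.48 on Day5, a rise of 1.65 ± 0.22 (3.14-fold, adjusted p = 0.000627). Without Day0 replicate 1 the list had 2 rises and 5 falls of 65, without Day5 replicate 1 2 and 5 of 58, and without Day5 replicate 2 3 and 6 of 58.

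Lipid transfer and lipid breakdown proteins fell at 11 of 31 spots and rose at 3. An esterase of the lipase family differed by -1.56 ± 0.16, a lipid transfer protein by -1.29 ± 0.25, and glycerophosphodiester phosphodiesterase, measured at 3 spots, by -1.13, -1.11 and -1.09. Phospholipase D, which releases phosphatidic acid from membranes, fell at 3 spots, with differences of -1.04, -0.91 and -0.61, while a second spot of the last transcript differed by 0.07. The clearest rise was a glycolipid transfer protein at 1.31 ± 0.23. Falls numbered 5 of 26 without Day5 replicate 2 and 6 of 27 without Day5 replicate 3, and rises 1 or 2 in these and in the fits without Day0 replicate 1, Day0 replicate 3 or Day5 replicate 1. Ribosomal proteins and translation factors had 1 rise and 3 falls among 34 spots and a median of 0.01.

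Other named rises lay outside these lists. The largest was a nodulin MtN21/EamA-like transporter (4.3.20.1), with -3.44 and -2.72 in Day0 replicates 1 and 2 and -1.27, -0.62 and -0.83 on Day5, a difference of 2.17 ± 0.30 (4.51-fold, adjusted p = 0.00289). Its spot aligned to more than 1 assembled transcript, so the identity is uncertain. A remorin, a protein of plasma membrane microdomains, read -2.20, -1.86 and -1.97 on Day0 and 0.08 and -0.35 in Day5 replicates 1 and 3 and rose by 1.88 ± 0.19 (3.67-fold, adjusted p = 0.000351). A calmodulin-binding IQ-domain 2 protein rose by 1.33 ± 0.24, a UDP-glycosyltransferase by 1.36 ± 0.19 and a universal stress protein by 1.44 ± 0.33, the last of which did not pass without Day0 replicate 1 (adjusted p = 0.0643). A second spot of the universal stress transcript differed by 0.50. The largest rises of all were at spots with no name here. Spot 9.2.5.22 went from -4.23 and -2.0 in Day0 replicates 1 and 3 to 0.43, 0.25 and 0.33 on Day5, a difference of 3.45 ± 0.41 (11.0-fold, adjusted p = 0.000348), but another spot of its assembled transcript differed by 0.67 and did not pass. Spot 6.3.8.16 rose by 2.88 ± 0.43 and was back at -2.52 on Day25 in the 1 sample with a value.

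Different spots of the same assembled transcript can be set side by side within the array. There were 172 transcripts with 2 or more spots tested, and 30 of them held a spot at least 2-fold changed. In 29 of these 30 all spots lay on the same side of 0, in 18 all passed in the same direction, and in none did spots pass in opposite directions. The exception in side was the auxin receptor F-box protein. Within these transcripts the log2 differences spanned a median of 0.40, against 0.28 over all 172 transcripts. The 30 were picked through a spot already called, and agreement in side was not set against that of all 172, so nothing is read from it.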

How the data were processed

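Each sample was hybridised to 2 technical arrays of the 2-colour PtGen2 cDNA array. The deposited log2 ratios were made by the authors from scanner intensities without background subtraction, after removal of low-quality spots, by print-tip loess within arrays and cyclic loess between arrays in limma; dyes were not swapped. Of the spots, 6819 carry no value. Scanner intensities deposited by the authors, for 48 print tips, served to check the direction of the ratio and as an alternative. Technical arrays were averaged, spots with values in 2 or more samples on both days were kept, and 1 model over all 15 samples was fitted with limma (version 3.58.1, statmod 1.5.0, R 4.3.3) with empirical Bayes moderation and Benjamini-Hochberg adjustment over all spots. Thresholds were an adjusted p of 0.05 and, where stated, a 2-fold change. The fit was tested on simulated data.

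The members, gene lists and rules were chosen with earlier results of these data known. Named spots are the 15 largest named rises and falls (1 spot per name, days not overlapping), up to 2 in each direction per list, the study's chromatin and transcription factor spots, and the 3 largest changes in each direction; further list members are named as examples. Names and primers come from the study's tables, whose values were not used. The number of arrays limits the precision. Alternatives were a fit of the 6 samples alone, stricter filters on missing or dim spots, recomputation from intensities (with normexp, offset 50, or without quality marks), other scaling of arrays, arrays entered singly, a replicate block, an intensity trend, and leaving out each sample.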

Additional observations from a re-analysis of the deposited data

Results flagged for a closer look

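A signal appeared in data that the comparison did not use. The value table leaves out 6819 spots, and for 1732 of them the scanner intensities gave usable ratios in 2 or more samples on both days. After recomputation with the same loess steps, 82 of these 1732 spots (4.73%) had an adjusted p under 0.05 in limma, with log2 differences (Day5 minus Day0) from -2.3 to 2.19. In the same recomputed fit 1217 of all 18408 spots tested passed, and in the main fit 7.33% of spots did. The left-out spots thus passed less often than spots in general. At least 2-fold changes were seen at 21 falling and 13 rising spots. Why the value table leaves these spots out is not given in the sources used here.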

How the results depend on the processing

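With only the 6 samples of these days in the fit, 381 spots passed in place of 1223, with 77 rises and 142 falls of at least 2-fold in place of 130 and 233. Without quality marks 2230 passed (219 and 396), with 26496 spots tested in place of 16676. With values required in all 3 samples of both days there were 78 rises and 153 falls, since 11331 spots were then tested. Scaling the arrays left 60 rises. Leaving out single samples gave 491 to 1503 spots, 66 to 163 rises and 130 to 329 falls. Of the 363 spots, 216 passed and were 2-fold with the 6 samples alone. The other alternatives stayed within 1.5 times of the main counts. Of 110 named spots that passed, 67 passed under every alternative that tested them. None turned direction, which leaving out a single sample could not do where the days did not overlap. The 6 samples alone lost 36, scaling lost 12 and leaving out single samples lost 2 to 15.

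Named spots that had not passed changed sign in 17 values: DCL1 0.07 and MYB3 -0.14 and a MYB-like factor (3.1.19.21) -0.02 after scaling; BSH 0.09, 0.02 and 0.01 without Day0 replicate 1, Day0 replicate 3 and Day5 replicate 2 (range over single samples left out -0.21 to 0.09); DMAP1 -0.05 (range to 0.15), the MYB-like factor -0.03 and INO80 -0.01 without Day0 replicate 2; a GRAS factor 0.05 without Day0 replicate 3 and 0.0 without Day5 replicate 3 (lowest -0.15); INO80 -0.08 recomputed from intensities, -0.08 with normexp, -0.2 without marks, -0.0 with arrays entered singly, -0.09 without Day0 replicate 3 and -0.0 without Day5 replicate 2 (highest 0.14). The cause was not tested.

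The replicate numbers gave no clear pairing of the samples. Deviations of samples with the same number correlated weakly, at 0.174, 0.012 and 0.17. Day0 replicate 2 correlated best with Day5 replicate 3 (0.168), and each other Day0 replicate with the Day5 sample of its own number. With a replicate block 1220 spots passed, 136 rose and 234 fell at least 2-fold. A block for slide or scan was not run, since the sources used here name neither.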
